A study of Mus musculus with 16 samples.

Results

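The 10 genes described here encode the enzymes that carry long-chain fatty acids into mitochondria and shorten them there, from the carnitine shuttle (Cpt1b, Slc25a20 and Cpt2) through the acyl-CoA dehydrogenases (Acadvl, Acadl and Acadm) and the trifunctional protein (Hadha and Hadhb) to the last enzymes of a round (Hadh and Acaa2). Every probe that was not a control and that the array files named for one of these genes was taken, which gave 12 probes for the 10 genes, of 55681 probes and 34650 gene names on the array. The members were selected on measured values of these arrays, namely the differences between Het and WT mice in polysome RNA and in polysome loading. Loading is the polysome minus whole-muscle difference of a mouse, so the whole-muscle difference between genotypes is part of it. The genotype differences in polysome RNA, in loading and in whole muscle are therefore given as a description, and nothing is read from them. Differences between kinds of RNA, averaged over both genotypes, and the genotype difference in monosome RNA were not the values used for the choice and were tested. The differences between kinds of RNA use polysome or whole-muscle arrays that also entered the choice, so they are not wholly independent of it.

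RNA came from gastrocnemius, the large calf muscle, of male C57BL6 littermates aged 8 to 16 weeks, 3 wild-type (WT) and 3 Eif6 heterozygous (Het, Eif6+/-). Eif6 encodes a factor that binds the large ribosomal subunit, and the Het animals are haploinsufficient for it in the whole body, not in muscle alone. Each mouse gave RNA of the whole muscle, RNA of the pooled sucrose-gradient fractions with 2 or more ribosomes (polysome) and RNA of the fraction with a single ribosome (monosome). The 16 arrays comprised 3 per genotype for whole muscle, 3 per genotype for polysomes and 2 per genotype for monosomes (WT replicates 1 and 2, Het replicates 1 and 3), and the design text states that the monosome arrays were not used in the study's own analysis.

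Signals are log2 intensities after quantile normalisation, on which a step of 1 is a 2-fold difference. Levels are printed on the scale of all 16 arrays. Differences that involve whole-muscle and polysome RNA alone come from the 12 arrays normalised without the monosome arrays, so they depart slightly from differences of the printed levels. Both Eif6 groups were apart in each kind of RNA, with Eif6 at 8.21 to 8.40 in Het and 8.97 to 9.66 in WT whole muscle. The 8 markers of fast muscle fibre were well above background on every array, whereas at most 2 of 4 heart muscle markers and 1 of 3 brown adipocyte markers were. The 75th percentile of each array's processed signal, used as its brightness, ran from 13.5 to 33.0 in Het whole muscle, 42.3 to 150.1 in WT whole muscle, 63.1 to 106.4 in Het polysome, 24.1 to 66.1 in WT polysome and 12.7 to 36.4 in monosome arrays. The polysome and monosome arrays of WT replicate 2 stood apart: across genes with a pair of probes at least 500 bases apart, the median of the 5′ probe minus the 3′ probe was 0.60 and 0.82 on these arrays and between -1.35 and -0.79 on the other 14. Values without this mouse are given beside many of the members' differences below, but not for the correlations, the markers or the other pathway lists.

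Fatty acids that enter a muscle fibre are activated to acyl-CoA and handed to carnitine by carnitine palmitoyltransferase 1, whose muscle form is encoded by Cpt1b and whose inhibition by malonyl-CoA makes it the main control point of the pathway. The carrier encoded by Slc25a20 exchanges acylcarnitine for carnitine across the inner membrane, and Cpt2 returns the acyl group to coenzyme A in the matrix. Each round of the spiral then removes an acetyl-CoA in 4 steps: dehydrogenation by the acyl-CoA dehydrogenase that suits the chain length, hydration, a second dehydrogenation and thiolysis. For long chains the last 3 steps sit on the trifunctional protein, with hydratase and dehydrogenase in its Hadha subunit and thiolase in its Hadhb subunit. Shorter chains use separate enzymes, among them the hydroxyacyl-CoA dehydrogenase Hadh and the thiolase Acaa2.

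RefSeq promoters (mouse build GRCm38.p6) were at hand for 8 of the 10 genes, and the 250 bases before the gene start were searched on both strands for motifs read by nuclear receptors that act on this pathway and for 2 general promoter motifs. AGGTCA, the hexamer of nuclear receptors, was found in 2 of the 8 (Acadvl and Acadm) and in 14% of 32851 promoters. GGGCGG, the GC box, was found in 6 of the 8 and in 32.7% of all promoters, and CCAAT in 1 (Hadh) and in 33.8%. The single GC box of Hadha is the same site as 1 of the 2 of Hadhb, so it counts for both genes. TNAAGGTCA, the longer site of the oestrogen-related receptors, was in none of the 8 and in 1.14% of all, and the direct repeat of the hexamer with 1 base between its copies, bound by PPAR with RXR, was in none and in 0.0335%. Any hit of these last 2 is also a hit of AGGTCA. The 4 sequences below were picked for the reasons given next, and no link between a promoter and the RNA differences was tested. Acadvl and Hadh were the members with the largest polysome minus whole-muscle difference, Acadm is the other member with the AGGTCA hexamer, and the Hadhb window is also most of the Hadha promoter, since the 2 genes start 272 bases apart on opposite strands and their windows share 228 bases. Each is written 5′ to 3′ on the strand of its gene and ends at the base before its start, and capitals mark AGGTCA or GGGCGG, or the reverse complement of either.
Acadvl (chr11:70015429-70015678, minus strand): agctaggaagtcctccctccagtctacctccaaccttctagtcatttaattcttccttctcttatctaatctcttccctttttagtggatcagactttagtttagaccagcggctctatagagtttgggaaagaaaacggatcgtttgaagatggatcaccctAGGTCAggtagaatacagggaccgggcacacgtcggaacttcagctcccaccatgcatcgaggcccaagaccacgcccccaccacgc
Acadm (chr3:153944644-153944893, minus strand): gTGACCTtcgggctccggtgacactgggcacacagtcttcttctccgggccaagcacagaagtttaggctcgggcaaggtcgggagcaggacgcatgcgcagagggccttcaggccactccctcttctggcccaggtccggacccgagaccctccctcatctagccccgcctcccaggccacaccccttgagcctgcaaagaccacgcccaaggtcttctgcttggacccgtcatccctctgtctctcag
Hadhb (chr5:30155003-30155252, plus strand): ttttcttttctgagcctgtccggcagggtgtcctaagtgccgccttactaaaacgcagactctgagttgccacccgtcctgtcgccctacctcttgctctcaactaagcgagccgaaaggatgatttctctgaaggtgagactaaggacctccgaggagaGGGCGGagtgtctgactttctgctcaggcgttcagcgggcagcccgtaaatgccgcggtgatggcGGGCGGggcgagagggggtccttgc
Hadh (chr3:131272102-131272351, minus strand): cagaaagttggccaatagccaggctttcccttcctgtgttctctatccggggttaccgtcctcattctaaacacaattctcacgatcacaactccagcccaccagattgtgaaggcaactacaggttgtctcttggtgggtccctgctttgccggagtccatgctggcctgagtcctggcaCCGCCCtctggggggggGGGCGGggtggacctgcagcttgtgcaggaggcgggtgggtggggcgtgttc
The AGGTCA of Acadvl lay at positions -87 to -82 from the start in the forward direction, and that of Acadm at -249 to -244 in reverse. GC content over the 8 windows ran from 49.6% (Acadvl) to 68.0% (Acadl), against a median of 52.4% over all promoters. Only Acadvl lay below that median. A match here is a run of letters and not a bound site, and none of the arrays measured binding.

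Of the 12 probes, 11 passed the filter for testing, which asked that all arrays of some group be well above background, and 9 were well above background on all 16 arrays. Where a gene had 2 probes, the brighter one stood for it. The second Cpt2 probe was well above background on 2 of 16 arrays and was not tested. Probe positions are given on build mm9.

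Cpt1b (probe A_55_P1956882, chr15:89246836-89246895) had its highest group means in polysome RNA. Its log2 signal was 10.44, 10.06 and 10.49 in the 3 WT polysome arrays and 10.43, 10.63 and 10.53 in the Het ones, against 9.92, 10.24 and 10.16 in WT and 10.14, 9.97 and 10.09 in Het whole muscle. Monosome arrays read 9.83 and 9.75 in WT and 9.44 and 9.59 in Het, below every whole-muscle and polysome array. The 4 polysome and whole-muscle groups overlapped with their neighbours in the order of means.

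Slc25a20 (A_51_P344008, chr9:108585399-108585458), the carnitine-acylcarnitine carrier, was well above background on 14 of 16 arrays. It read 6.72, 6.13 and 6.02 in WT and 5.86, 6.10 and 5.96 in Het whole muscle, then 5.28, 5.73 and 5.60 in WT and 5.74, 6.2 and 6.30 in Het polysomes. The monosome arrays scattered widely, at 3.05 and 6.58 in WT and 5.01 and 3.93 in Het. Cpt2 (A_55_P2033650, chr4:107576591-107576650), the inner-membrane transferase, read 9.28, 9.40 and 9.77 in WT and 9.55, 9.58 and 9.45 in Het whole muscle. Its polysome arrays read 9.96, 8.87 and 9.71 in WT and 10.08, 9.87 and 9.86 in Het, and its monosome arrays 8.82 and 8.49 in WT and 8.76 and 8.42 in Het. All Het polysome arrays lay above all whole-muscle arrays for Cpt2, and all 4 monosome arrays lay below every other array.

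Among the acyl-CoA dehydrogenases, Acadvl (A_55_P1991906, chr11:69823722-69823781), which takes very long chains, showed 3 separate levels. It read 12.87, 12.48 and 12.83 in WT and 13.07, 12.74 and 12.90 in Het polysomes, 11.76, 11.99 and 11.81 in WT and 12.04, 11.94 and 11.74 in Het whole muscle, and 11.27, 11.68, 10.97 and 10.79 in WT and Het monosomes. No array of 1 kind of RNA reached into the range of another. Acadm (A_51_P319879, chr3:153585670-153585729), the medium-chain dehydrogenase, read 10.94, 10.41 and 11.21 in WT polysomes and 11.62, 11.81 and 11.89 in Het polysomes. Its whole-muscle arrays were close together, at 10.97, 11.06 and 10.79 in WT and 10.90, 10.83 and 10.86 in Het, and its monosome arrays lowest, at 10.30, 9.40, 10.11 and 10.23. Het polysomes lay above every other array for Acadm, and WT polysomes overlapped with whole muscle. Acadl (A_51_P149455, chr1:66877673-66877732), the long-chain dehydrogenase, read 8.25, 6.47 and 8.24 in WT and 8.99, 8.99 and 8.49 in Het polysomes, and 8.37, 8.33 and 8.17 in WT and 8.77, 8.19 and 8.01 in Het whole muscle. Its monosome arrays read 7.62 and 1.97 in WT and 7.86 and 7.07 in Het. The lowest Acadl values in polysomes and in monosomes, 6.47 and 1.97, were both of WT replicate 2, and the latter was the only Acadl spot not well above background.

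The 2 subunits of the trifunctional protein did not share 1 pattern. Hadhb (A_55_P2073294, chr5:30510925-30510984), the thiolase subunit, read 11.44, 10.61 and 11.46 in WT and 12.03, 11.97 and 11.77 in Het polysomes, 10.84, 11 and 10.81 in WT and 11.21, 10.91 and 10.86 in Het whole muscle, and 10.26, 9.31, 10.16 and 9.97 in monosomes. Hadha (A_52_P193029, chr5:30446215-30446274), the hydratase and dehydrogenase subunit, read 8.16, 7.96 and 8.69 in WT and 8.93, 8.83 and 8.74 in Het polysomes, but 9.0, 8.65 and 8.68 in WT and 8.31, 7.86 and 8.22 in Het whole muscle. Its monosome arrays read 7.21 and 8.00 in WT and 7.59 and 7.67 in Het. For Hadha, WT whole muscle thus stood beside Het polysomes at the top of the order, and for Hadhb both whole-muscle groups lay near 11.

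Hadh (A_51_P196590, chr3:130936889-130936948), the dehydrogenase for shorter hydroxyacyl chains, had monosome arrays that did not lie below whole muscle. It read 10.79, 12.26 and 10.95 in WT and 11.08, 11.10 and 11.52 in Het polysomes, and 10.06, 10.18 and 9.87 in WT and 9.48, 9.94 and 10.14 in Het whole muscle. Its monosome arrays read 10.41 and 12.24 in WT and 9.96 and 10.05 in Het, and the 2 highest Hadh values of all were those of WT replicate 2. Acaa2 (A_51_P125260, chr18:74965691-74965750), the thiolase, was spotted 10 times and its spots were averaged. It read 11.91, 12.17 and 11.97 in WT and 12.54, 12.33 and 12.42 in Het polysomes, 11.60, 11.92 and 11.72 in WT and 11.92, 11.79 and 11.48 in Het whole muscle, and 10.87, 11.46, 10.99 and 10.61 in monosomes. Het polysomes lay above every other array, and all 4 monosome arrays lay below every whole-muscle array.

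**Figure D1:**
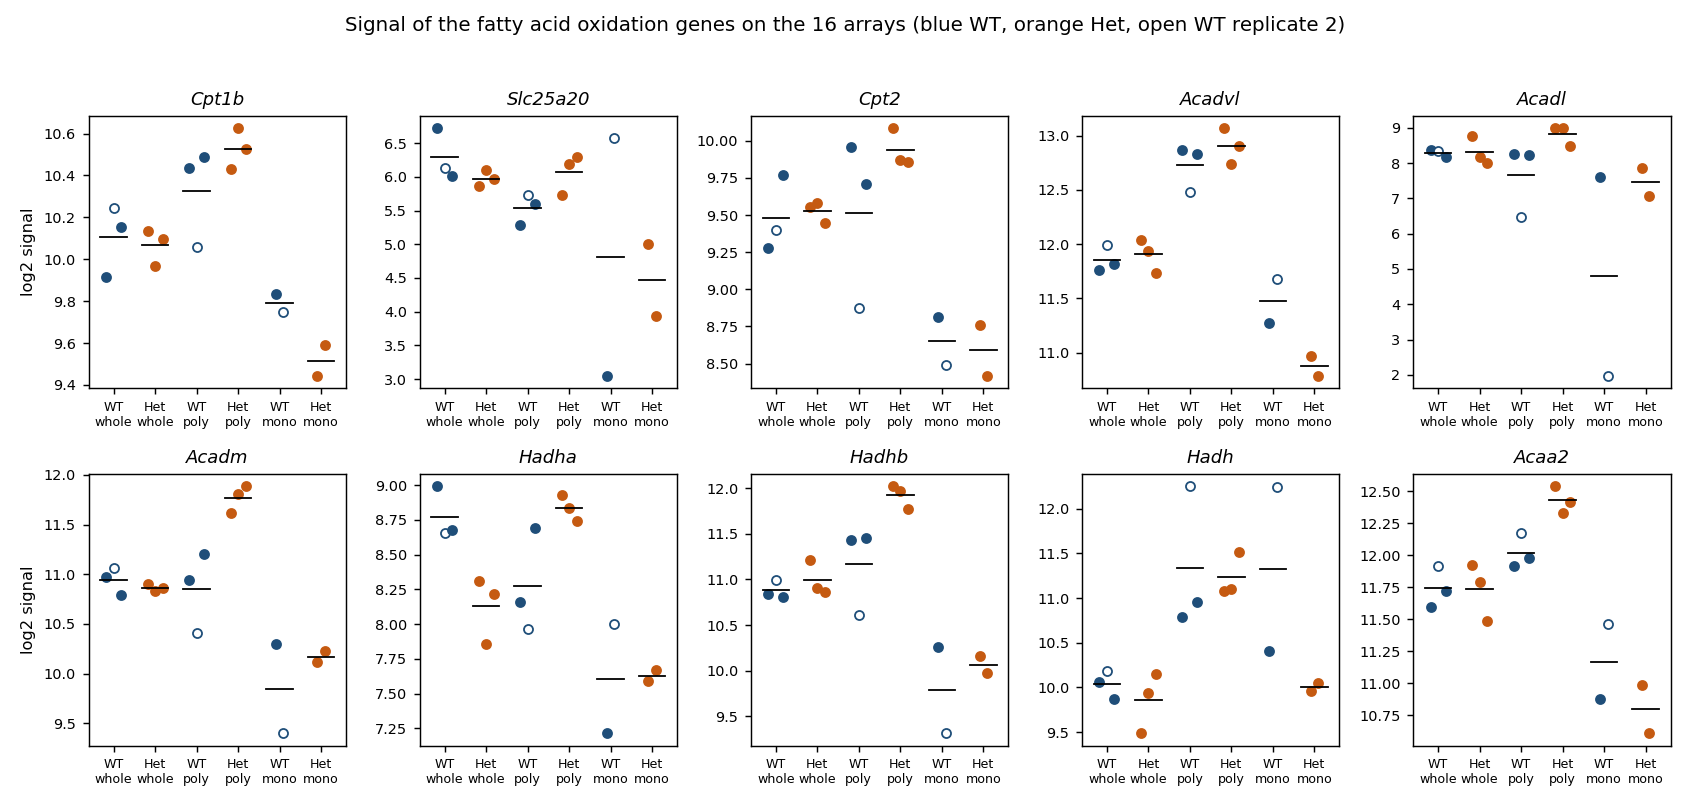
Log2 signal of each of the 10 genes (vertical axis, a separate range per panel) on the 16 arrays, by genotype and kind of RNA, with a line at each group mean. Blue points are WT, orange points Het and open points WT replicate 2. Polysome arrays lie above monosome arrays of the same genotype in most panels, and the open points are the extreme ones for Acadl and Hadh.

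The first tested question was which members were higher in polysome RNA than in whole muscle of the same mouse, that is, which transcripts were more abundant among those with 2 or more ribosomes. The mean over both genotypes was tested against 0 in 6 mice with limma, and p-values were adjusted over 19806 probes. Of the 10 members, 3 were higher at an adjusted p under 0.05 (Hadh, Acadvl and Acaa2) and 0 were lower, where 13.5% of all tested probes were called higher and 11.8% lower. The median of the members was 0.37, against 0.10 over all probes, and 8 of 10 were above 0. The members above 0 in every mouse were the same 3, against 16.1% of probes above 0 and 12.5% below 0 in every mouse.

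Hadh showed the largest difference. Its polysome minus whole-muscle value was 0.72, 2.06 and 1.08 in the WT mice and 1.59, 1.15 and 1.36 in the Het mice, a mean of 1.33 (SE 0.20, limma adjusted p = 0.00552). Acadvl followed at 1.11, 0.48 and 1.02 in WT and 1.04, 0.80 and 1.17 in Het, a mean of 0.93 (SE 0.16, limma adjusted p = 0.00719). These 2 calls held in 16 of 18 alternative analyses. They were lost only within a single slide, where the values were 1.34 and 1.32 for Hadh and 1.05 and 0.87 for Acadvl. Under 75th percentile scaling Acadvl was 0.53 and Hadh 1.11. No mouse had its whole-muscle and polysome arrays on the same slide, so the within-slide values compare different mice.

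Acaa2 was called with a smaller difference of 0.31, 0.25 and 0.25 in WT and 0.62, 0.53 and 0.93 in Het, a mean of 0.48 (SE 0.14, limma adjusted p = 0.0432). It was above 0 in all 6 mice but was called in only 1 of 6 fits with a mouse left out (the fit without WT replicate 2) and in 8 of 18 alternatives in all. It lost its call at an unchanged difference of 0.48 with slide as a term (limma adjusted p = 0.0653) and at 0.51 with array brightness as a term (limma adjusted p = 0.11) and fell to 0.06 when arrays were scaled to their 75th percentile instead of quantile-normalised (limma adjusted p = 0.798). Over its 18 alternatives the adjusted p ran from 0.00404 to 0.798. Hadhb, at 0.59, -0.39 and 0.64 in WT and 0.81, 1.05 and 0.90 in Het, just missed the threshold, with a mean of 0.60 (95% interval 0.17 to 1.03, limma adjusted p = 0.0512). Without WT replicate 2, 5 members were called, Hadhb (0.77) and Acadm (0.55) in addition to the first 3, along with 14.8% of all probes higher and 13.4% lower. Under 75th percentile scaling the median of the 10 was 0.12.

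The other 6 members did not pass. Acadm had a mean of 0.41 (95% interval -0.01 to 0.83), Cpt1b of 0.34 (-0.03 to 0.71), Cpt2 of 0.22 (-0.22 to 0.66) and Hadha of 0.10 (-0.30 to 0.51). The 2 means below 0 were those of Acadl, at -0.07 (-0.72 to 0.58), and of Slc25a20, at -0.33 (-0.79 to 0.12). Leaving out 1 mouse moved several of these: Acadl ran from -0.25 (without WT replicate 3) to 0.24 (without WT replicate 2) and Hadha from -0.03 (without WT replicate 3) to 0.19, so the direction of both turned. Cpt2 was 0.06 and Slc25a20 -0.16 without WT replicate 1, and Cpt2 was 0.36 without WT replicate 2. Since a gradient sorts transcripts of all cells of the muscle, a transcript from fewer cells of a type and 1 with less RNA per cell cannot be told apart.

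The subunits of the trifunctional protein differed in this ratio. Hadhb exceeded Hadha in the polysome minus whole-muscle difference by 1.43, 0.30 and 0.62 in the WT mice and by 0.20, 0.07 and 0.37 in the Het mice, in the same direction in all 6. This pair was picked out after its values were seen and was not tested. The starts of the 2 genes lie on either side of the stretch that their windows share.

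**Figure D2:**
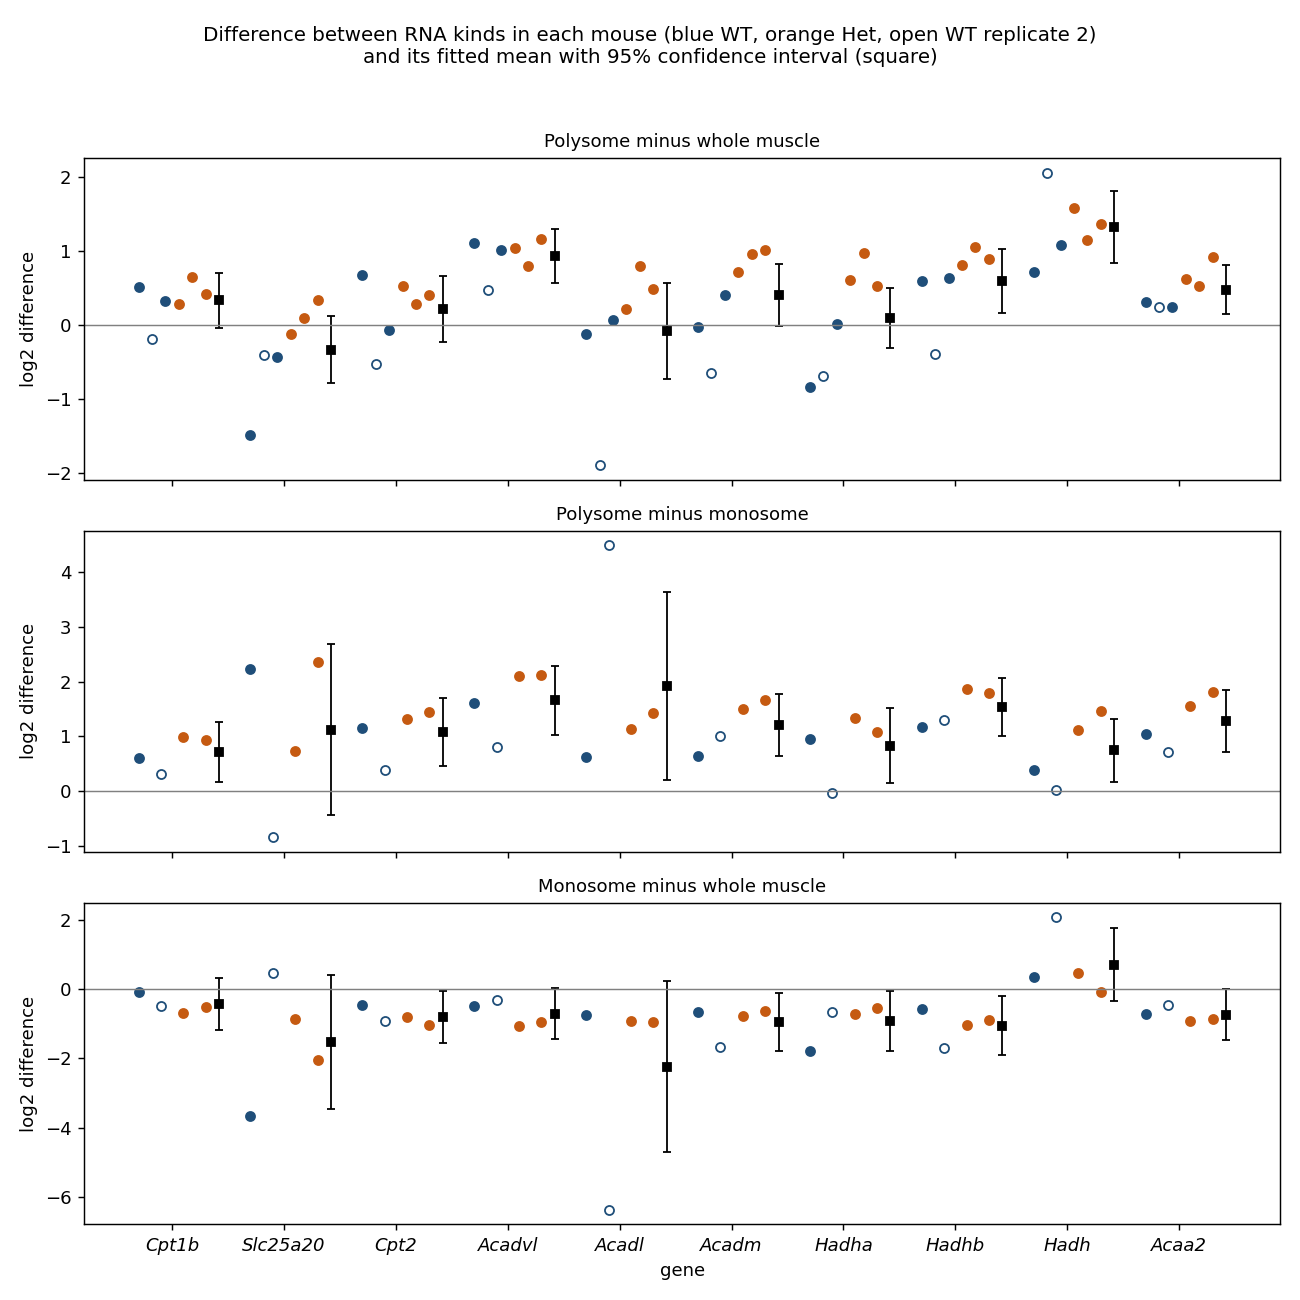
Log2 difference between 2 kinds of RNA of the same mouse for each gene, with polysome minus whole muscle (6 mice), polysome minus monosome (4 mice) and monosome minus whole muscle (4 mice) from top to bottom. Points are mice (blue WT, orange Het, open WT replicate 2) and squares are the fitted means with 95% confidence intervals. Hadh and Acadvl lie above 0 in every mouse of the top panel, with means of 1.33 and 0.93, and all 10 means lie above 0 in the middle panel.

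Cell type markers moved with the same comparison. In polysome minus whole muscle, 3 of 7 slow fibre markers were higher at a limma adjusted p under 0.05 (Myl2 0.80, Myl3 1.06 and Tnnt1 1.25). The slow fibre list had a median of 0.45, with 5 of 7 above 0 and a lowest value of -0.45. At the same threshold 2 of 8 fast fibre markers were lower (Atp2a1 -1.69 and Mylpf -1.30). The fast fibre list had a median of -0.50, with 2 of 8 above 0 and a highest value of 0.31. Of 6 adipocyte markers tested, 4 were higher (Adipoq 0.65, Cfd 1.59, Fabp4 1.57 and Retn 0.91, list median 0.80). Of 5 immune markers 2 were higher (Cd68 and Cd74), of 4 endothelial markers 1 (Tie1) and of 5 blood markers 0. The immune list had a median of 0.36, with 3 of 5 above 0 and a lowest value of -0.38. Above 0 were 4 of 4 endothelial (median 0.38) and 5 of 5 blood markers (median 0.56). The log2 of the summed adipocyte signal ran from 13.11 to 14.48 in WT and 13.82 to 13.96 in Het polysomes, and from 11.83 to 12.86 in WT and 11.97 to 12.97 in Het whole muscle. The summed slow fibre signal ran from 14.10 to 15.57 and 14.48 to 15.18 in the same polysome groups and from 12.95 to 14.76 and 13.75 to 14.23 in whole muscle. Slow fibres and adipocytes also express genes of fatty acid oxidation, and the part of these markers in the members' result was not tested.

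The second tested question set polysome against monosome RNA in the 4 mice with both arrays. All 10 members had a mean above 0, with a median of 1.16 against 0.17 over all probes. At an adjusted p under 0.05, limma called 0 of the 10 and 0% of all 20244 probes in either direction (the lowest adjusted p of a member was 0.0551), and a paired t-test called 0 of the 10 as well. At an unadjusted p under 0.05, limma had 9 of 10 higher, where 24.6% of all probes were higher and 16.5% lower. Of the 10, 8 were above 0 in every mouse, as were 31% of all probes.

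Hadhb was the most even of the larger differences, at 1.17 and 1.30 in WT and 1.86 and 1.80 in Het, a mean of 1.53 (95% interval 1.0 to 2.07). Acadvl had 1.60 and 0.80 in WT and 2.10 and 2.12 in Het, a mean of 1.66 (1.02 to 2.29). Acaa2 had a mean of 1.28 (0.72 to 1.84), Acadm of 1.21 (0.65 to 1.77) and Cpt2 of 1.07 (0.45 to 1.70). These intervals are not adjusted over all probes, and among all members only that of Slc25a20 reached 0. Each of these 5 genes was higher in polysomes in all 4 mice.

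Acadl had the largest mean, 1.92, but its values were 0.63 and 4.50 in WT and 1.14 and 1.43 in Het. The 4.50 was that of WT replicate 2, whose monosome spot was not well above background, and the mean was 0.96 without this mouse and 2.89 without WT replicate 1. Slc25a20 had values of 2.23 and -0.85 in WT and 0.73 and 2.37 in Het, a mean of 1.12 (95% interval -0.45 to 2.69), and 2 of its 4 monosome spots were not well above background. Leaving out WT replicate 1 gave 0.35, and leaving out WT replicate 2 gave 1.89. Hadha (0.83), Hadh (0.75) and Cpt1b (0.71) had the lowest means. Hadh was the member whose direction turned under an alternative, at -0.02 within slide 2. With 1 mouse left out, the median of the members stayed between 1.04 and 1.29. Each such fit leaves 1 mouse in a genotype, so no calls are read from it.

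The same polysome arrays enter both comparisons, so their values are not independent of each other. In polysome minus monosome, slow fibre markers had a median of 1.17, adipocyte markers of 1.32 and fast fibre markers of 0.58, and 7 of 7, 5 of 6 and 7 of 8 of them were above 0. Their part in the members' result was not tested.

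Monosome RNA set against whole muscle gave the opposite sign for 9 of 10 members, with a median of -0.86 against -0.10 over all probes. limma called 0 of 10 and 0% of all probes in either direction at an adjusted p under 0.05, and the paired t-test called 0. At an unadjusted p under 0.05, limma had 5 members lower, where 11.8% of all probes were lower and 11.1% higher. Of the 10, 8 were below 0 in every mouse, as were 21.7% of all probes. The unadjusted calls of limma included Hadhb, at -0.58 and -1.69 in WT and -1.05 and -0.89 in Het, and Acadm, at -0.67 and -1.67 in WT and -0.78 and -0.63 in Het. Acadl had a mean of -2.24, which was -0.84 with WT replicate 2 left out and -3.64 with WT replicate 1 left out. Slc25a20, with 2 of 4 monosome spots not well above background, had a mean of -1.53, which was -2.56 and -0.50 with these same mice left out in turn. Cpt1b is counted by its brighter probe, and its second probe had 0.70. The member above 0 was Hadh, at 0.35 and 2.06 in WT and 0.48 and -0.09 in Het, a mean of 0.70 (95% interval -0.35 to 1.75), which was 0.27 when WT replicate 2 was left out and 1.13 when WT replicate 1 was. In the same comparison fast fibre markers had a median of -0.99 (0 of 8 above 0), slow fibre markers of -0.73 (1 of 7) and adipocyte markers of 0.11 (4 of 6), and their part in the members' values was not tested.

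Between genotypes, whole-muscle levels of the members are described in 3 Het and 3 WT mice. The median difference was -0.03, the same as over all probes. Hadha was the single member with no overlap between the genotypes, its 3 Het arrays (8.31, 7.86 and 8.22) lying below the 3 WT arrays (9.0, 8.65 and 8.68), where 8.46% of all probes lay wholly below and 5.09% wholly above in Het. Its difference was -0.65, and over 18 alternatives it ran from -0.74 to -0.16, the smallest with array brightness as a term. Het whole-muscle arrays were all dimmer than the WT ones, and the part of brightness in the Hadha value was not tested. The other 9 members had differences between -0.32 (Slc25a20) and 0.11 (Hadhb). With 1 mouse left out, Slc25a20 ran from -0.46 (without WT replicate 3) to -0.10 (without WT replicate 1), and Hadhb from 0.0019 (without Het replicate 1) to 0.17.

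In monosome RNA, with 2 arrays per genotype, limma called 0 of 10 members at an adjusted p under 0.05, where it called 0.395% of all probes higher and 0.104% lower, and 3 passed at an unadjusted p under 0.05 (0 by the t-test of the methods). Of these 3, 1 was higher and 2 were lower, where 19.8% of all probes were higher and 13.2% lower at that threshold, which is near the members' share. Acadl had a Het minus WT difference of 2.67, Hadh of -1.32 and Acadvl of -0.60. Without WT replicate 2 these became -0.16, -0.40 and -0.39, so the first changed sign, and so did Slc25a20 (-0.35 with and 1.42 without this mouse), Acadm (0.32 and -0.13) and Hadhb (0.28 and -0.20). Without WT replicate 1, replicate 2 was the sole WT monosome array, and the differences were -2.11 for Slc25a20, -0.80 for Acadvl, 5.49 for Acadl and -2.24 for Hadh. No calls are read from this fit, since a lone array shows no spread. Its Acadl value was set against the spot that was not well above background, and 2 of the 4 Slc25a20 monosome spots were not well above background either. Members with both Het arrays below both WT arrays were Cpt1b, Acadvl and Hadh, and 0 lay wholly above, where 23.7% of all probes lay wholly below and 26.8% wholly above. Marker medians in this comparison were -1.16 for blood (0 of 5 above 0), -1.36 for immune cells (0 of 5), -1.06 for endothelium (1 of 4) and -0.75 for slow fibre (1 of 7), and their part was not tested.

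Polysome RNA and polysome loading by genotype are the values that chose the list, and they too are only described. In polysome RNA, the Het minus WT difference was 1.18 for Acadl, 0.91 for Acadm, 0.75 for Hadhb, 0.56 for Hadha, 0.55 for Slc25a20, 0.42 for Cpt2, 0.41 for Acaa2, 0.20 for Cpt1b, 0.18 for Acadvl and -0.10 for Hadh. The median was 0.49, against 0.05 over all probes, and 6 members (Slc25a20, Acadl, Acadm, Hadha, Hadhb and Acaa2) had all Het arrays above all WT arrays, as did 13.2% of all probes, with 8.6% wholly below. The median stayed between 0.37 and 0.58 under 18 alternatives. Without WT replicate 2 the values were 0.58 for Acadl, 0.69 for Acadm, 0.47 for Hadhb, 0.41 for Hadha, 0.65 for Slc25a20, 0.10 for Cpt2, 0.48 for Acaa2, 0.06 for Cpt1b, 0.05 for Acadvl and 0.36 for Hadh. Leaving out WT replicate 1 instead gave 0.64 for Cpt2 and -0.37 for Hadh. Other lists had the following medians in the same comparison, given as a description. The median was 0.59 for the other enzymes of the spiral (10 of 10 above 0), 0.95 for ketone body genes (4 of 4) and 0.50 for fast fibre markers (8 of 8), and it was -1.14 for blood markers (0 of 5) and -0.93 for immune markers (0 of 5). The part of these cell types in the members' values was not tested.

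Loading, the polysome minus whole-muscle difference of each mouse, was higher in Het by 1.21 for Hadha, 1.15 for Acadl, 0.99 for Acadm, 0.88 for Slc25a20, 0.64 for Hadhb, 0.42 for Acaa2, 0.38 for Cpt2, 0.24 for Cpt1b, 0.13 for Acadvl and 0.08 for Hadh. The median was 0.53, against 0.17 over all probes, and 6 members (those named for polysome RNA) had all 3 Het mice above all 3 WT mice, as did 13.6% of all probes, with 11.7% wholly below. The genotype difference of Hadha was -0.65 in whole muscle beside 0.56 in polysomes, whereas that of Acadm was -0.08 beside 0.91 and that of Hadhb 0.11 beside 0.75. With WT replicate 2 left out, the loading values were 1.12 for Hadha, 0.52 for Acadl, 0.71 for Acadm, 1.06 for Slc25a20, 0.30 for Hadhb, 0.41 for Acaa2, 0.10 for Cpt2, 0.03 for Cpt1b, -0.06 for Acadvl and 0.47 for Hadh. Without WT replicate 1 the loading value was 0.53 for Slc25a20, 0.70 for Cpt2, 0.38 for Cpt1b, 0.25 for Acadvl and -0.20 for Hadh. In loading, the median was 0.62 for the other enzymes of the spiral (10 of 10 above 0), 0.67 for uptake and activation (8 of 10), 0.73 for fast fibre markers (7 of 8) and -1.10 for blood markers (1 of 5), and the part of these cell types was not tested. A fit with a term for array brightness gave 0.08 for Acadl and 0.34 for Hadha. The loading median was 0.73 within slide 1 and 0.18 within slide 2.

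**Figure D3:**
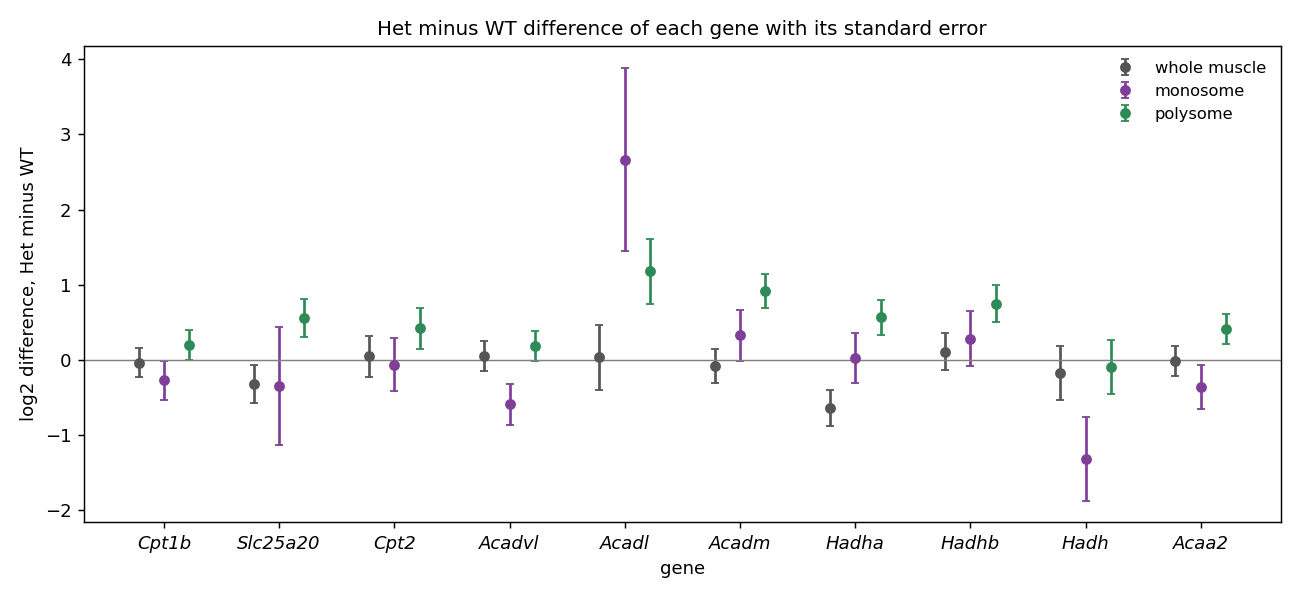
Het minus WT difference (log2, vertical axis) of each gene in whole-muscle (grey, 3 against 3 arrays), monosome (purple, 2 against 2) and polysome RNA (green, 3 against 3), with bars for the standard error of the fit. With all 6 mice, whole-muscle points lie between -0.32 and 0.11 except Hadha at -0.65, and the wide purple bar of Acadl at 2.67 rests on WT replicate 2 while the green and grey points are among the values that chose the genes.

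Correlations between members over the 16 arrays are given as a description. The arrays share the groups, the mice and the normalisation, and they include the polysome and whole-muscle arrays whose genotype differences chose the members, which builds in part of any shared course. Each member was set against the mean of the other 9 after centring, and r was 0.94 for Hadhb, 0.91 for Acadm, 0.90 for Cpt1b and Cpt2, 0.89 for Acaa2, 0.85 for Acadvl and 0.79 for Hadha. It was 0.40 for Slc25a20, 0.38 for Acadl and -0.02 for Hadh. The closest pair was Acadm with Hadhb, an acyl-CoA dehydrogenase and a thiolase subunit (r = 0.96), and the most unlike pair was Acadl with Hadh (r = -0.55). The polysome and monosome arrays of WT replicate 2 held the lowest Acadl and the highest Hadh values. No r was computed without this mouse, and its part in that value was not tested. Hadha and Hadhb, which start 272 bases apart on chromosome 5, had r = 0.70.

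The mean of the members ran from -0.90 to -0.64 in monosome arrays, -0.05 to 0.16 in whole muscle, -0.03 to 0.39 in WT polysomes and 0.71 to 0.72 in Het polysomes, relative to the mean of all arrays. Among 7826 genes with a probe well above background on all 16 arrays, the 5 non-members most like this mean were Uqcrc2 (r = 0.99), a subunit of the respiratory cytochrome bc complex, Hist1h1c (0.98), a linker histone, Pecr (0.98), a peroxisomal reductase of fatty acid metabolism, Atp6v1e1 (0.97), a subunit of the vacuolar proton pump, and Sdha (0.97), the flavoprotein of succinate dehydrogenase.

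The second Cpt1b probe (A_55_P2039210, chr15:89247106-89247165, nearer the 5′ end) did not follow the first. The second minus the first gave log2 differences of -2.75 to -0.30 on 14 arrays, but 0.32 and 0.60 on the polysome and monosome arrays of WT replicate 2. Its polysome minus monosome difference was 0.01 (95% interval -0.62 to 0.63), against 0.71 for the first probe, and its polysome minus whole-muscle difference was 0.66 (0.04 to 1.28), against 0.34. In monosome minus whole muscle it was 0.70 (above 0 in 3 of 4 mice), against -0.44, and in polysome Het minus WT -0.12, against 0.20. The size of the Cpt1b differences, and in these last 2 comparisons their direction, thus depended on the probe.

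The other genes of the pathway were described by lists of roles, whose counts stand beside the 13.5% of all probes called higher and 11.8% called lower in polysome minus whole muscle. Of 10 genes of fatty acid uptake and activation, 2 were higher in polysome than in whole-muscle RNA (Acsl5, an acyl-CoA synthetase, 1.05, and Fabp3, the muscle fatty acid binding protein, 1.04) and 2 were lower (Acsl6, another synthetase, -0.87, and Slc22a5, the carnitine importer, -1.07), at a limma adjusted p under 0.05. Their median was 0.12, near the 0.10 of all probes. Of 10 other enzymes of the spiral, 2 were higher (Acaa1a, the peroxisomal thiolase, 0.76, and Decr1, the dienoyl-CoA reductase, 0.93) and 1 was lower (Acadsb, which works on branched short chains, -1.23). Both subunits of the electron transfer flavoprotein, which takes the electrons of the acyl-CoA dehydrogenases, were higher (Etfa 0.60 and Etfb 1.17), and Etfdh, which passes them on to ubiquinone, had -0.09.

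Of 6 genes of lipolysis and lipid droplets tested, 2 were higher (Mgll, the monoglyceride lipase, 1.05, and Plin2, a droplet coat protein, 0.83), and the 4 genes of malonyl-CoA control (Acaca, Acacb, Mlycd and Prkaa2) had values from 0.07 to 0.33 with 0 called. Among 10 regulators, 3 were higher: Pparg (0.74), Ppargc1a (0.58) and Ppargc1b (0.98), a nuclear receptor and 2 coactivators. Of 4 genes of glucose sparing and uncoupling, Angptl4 (0.71) and Ucp2 (0.95) were higher, while Pdk4, the kinase that restrains pyruvate oxidation, had 0.03 and Ucp3, the muscle uncoupling protein, -0.10. Of 4 ketone body genes and the other 2 Cpt1 forms (Cpt1a and Cpt1c), 0 were called.

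In polysome minus monosome the lists differed in their medians, with 0 genes called at a limma adjusted p under 0.05 in any of them. The median was 1.40 for the 3 electron transfer genes, 1.39 for ketone body genes, 1.03 for the other enzymes of the spiral, 0.94 for lipolysis and 0.62 for malonyl-CoA control. It was 0.09 for uptake and activation, 0.03 for regulators and -0.80 for the other Cpt1 forms, against 0.17 over all probes. The 2 highest were Plin5, a droplet protein of oxidative tissue (1.97), and Acat1, the mitochondrial acetoacetyl-CoA thiolase (1.79), and the 2 lowest were Cpt1c, the brain form (-0.92), and Slc22a5 (-0.85). Whether the lists differ from each other was not tested. In monosome Het minus WT and in monosome minus whole muscle, 0 genes of these lists were called at a limma adjusted p under 0.05. The extremes were Acsl5 (-1.85), Crat (-1.68), Cpt1c (0.60) and Cpt1a (0.77) in whole-muscle Het minus WT, Angptl4 (-1.80), Rxra (-1.77), Acadsb (2.17) and Acat1 (2.66) in monosome Het minus WT, and Acadsb (-2.43), Lpl (-2.35), Angptl4 (0.85) and Cpt1a (1.53) in monosome minus whole muscle.

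**Figure D4:**
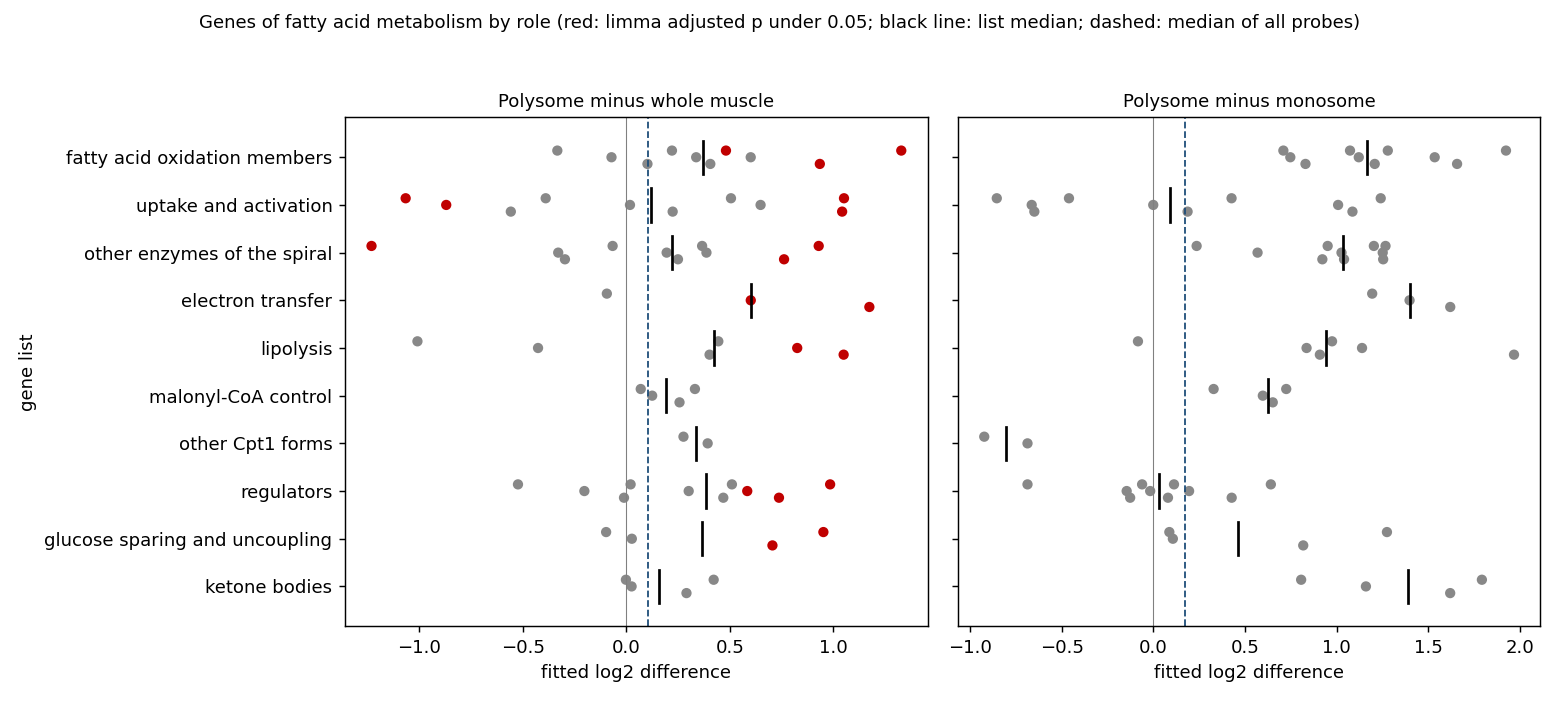
Fitted log2 difference (horizontal axis) of each gene of the fatty acid lists, by role, for polysome minus whole muscle (left, 6 mice) and polysome minus monosome (right, 4 mice). Red points have a limma adjusted p under 0.05, black lines are list medians and the dashed line is the median of all probes (0.10 and 0.17). Members of fatty acid oxidation have a median of 0.37 on the left and 1.16 on the right, where no point is red.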

How the data were processed

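RNA was labelled with Cy3 and read on 1-colour Agilent arrays with 60-base probes. The authors scanned the arrays and extracted spots with Agilent Feature Extraction 11.0.1.1 (a version taken from the file headers), and the deposited files hold spot intensities on a linear scale, background-subtracted per the file headers and not scaled between arrays. A deposited table made by the authors holds log2 values of the same arrays, and it served as an alternative. Of 62976 spots per array, 59305 were not controls and 0 were saturated. For arrays, depth does not apply, and the number of arrays limits the precision.

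Processed signals were log2 transformed, spots of a probe were averaged, and arrays were quantile-normalised, 12 whole-muscle and polysome arrays together and all 16 together for comparisons with monosomes. Probes with all arrays of some group well above background were tested, which left 19806 and 20244 probes. Tests were made in R 4.3.3 with limma 3.58.1. Its p-values were adjusted by Benjamini-Hochberg over all these probes, and the scripts were tested on simulated data. Differences between kinds of RNA were taken within a mouse, because the design text ties all kinds of RNA to the same mice. WT and Het mice of the same number were not paired. Each gene is represented by its tested probe with the highest mean signal over the 12 arrays.

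The members and the lists of pathway and marker genes were chosen with earlier results of these data known. All members are named. Of the other pathway genes, those with an adjusted p under 0.05 in a tested comparison are named, otherwise the 2 highest and 2 lowest of a comparison, with the 5 genes most like the members' mean. Etfdh, Pdk4, Ucp3 and the malonyl-CoA genes were added after their values were seen. Alternatives were 75th percentile scaling, normexp background correction, the authors' table, no or a stricter filter, slide or array brightness as a term, values within a slide, each mouse left out, the replicate number as a block, a plain t-test (unpaired between genotypes, as in the methods, and paired within a mouse between kinds of RNA) and the mean of a gene's probes. Amino acid sequences were not used here.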

Additional observations from a re-analysis of the deposited data

How the results depend on the processing

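Counts of called members are followed by the shares of all probes called higher and lower in the same fit. In monosome Het minus WT, 0 as reported, each genotype had 1 monosome array within slide 2, the WT one being that of WT replicate 2. Leaving out a mouse that had a monosome array likewise left 1 in its genotype. No counts are given for these fits, in which other groups supplied the spread. The count for polysome minus whole muscle, 3 as reported, was 5 with normexp (15.9% and 13.4%) and with the authors' table (15.3% and 13.9%), 0 within slide 1 and within slide 2 (0% of all probes), and 2 to 5 with a mouse left out (5 without WT replicate 2, 14.8% and 13.4%). For polysome minus monosome, 0 as reported, it was 6 with 75th percentile scaling (15.7% and 9.55%), 9 with normexp (16% and 9.28%), 9 with the authors' table (15.7% and 10.5%), 8 with probes well above background on all arrays (28% and 23.5%) and 7 in slide 2 alone (27.5% and 11.9%). With a mouse left out it was 0 to 10 (8 without WT replicate 1, 31.9% and 17.8%, and 10 without WT replicate 2, 19% and 14.5%). A term for slide also gave 10, but WT replicate 2 was the single mouse with these arrays on different slides, so this term in effect leaves that mouse out. Normexp moved the median of all probes there from 0.17 to 0.05 and that of the members from 1.16 to 0.94. For monosome minus whole muscle, 0 as reported, no count is given within a slide or with a mouse left out, for the same reason. With a mouse left out, the median of the members was -0.87 to -0.67. Without the pairing of arrays of 1 mouse (no replicate block), the counts were 4 for polysome minus whole muscle (12.9% and 11.8%), 7 for polysome minus monosome (16.9% and 9.07%) and 7 for monosome minus whole muscle (10.8% and 14.2%). With the replicate number as a block, which pairs a WT with a Het mouse although deviations of same-numbered arrays correlated at only -0.33 to 0.46, 0 members were called in monosome Het minus WT. The loading median of 0.53 was 0.18 within slide 2. Of the 3 members called in polysome minus whole muscle, none changed sign under any of the 18 alternatives. Apart from the slide term, the causes of these changes were not tested. Over all probes, normexp called 3235 higher and 1878 lower in polysome minus monosome, where 0 were called as reported, and in monosome Het minus WT 505 higher and 176 lower, against 80 and 21.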
